A study of Mus musculus with 24 samples.

Results

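Myl7, Myl4, Nppa, Sln and Bmp10 are transcripts that adult mice make mainly in the atria of the heart, and their values were followed here in 24 arrays of left ventricular RNA. The 5 genes were chosen because earlier results of the same arrays had shown them uneven between arrays, so their differences are described without a test. Each gene was read from 1 probe set paired with its symbol alone, and the 5 are among 18820 genes measured in this way. Myl7 (probe set 10384044), Myl4 (10381798), Nppa (10510265) and Sln (10585390) were uneven between arrays, whereas Bmp10 (10539802) was not.

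The study compared adult male wildtype and Per2-/- mice, which lack the circadian clock gene Per2, to learn how Per2 shapes gene expression in the ischemic heart. Both genotypes carry the strain label BL6C57, and the Per2-/- mice came from the Jackson Laboratories. Of each genotype, 3 sham hearts were operated on without treatment, 3 were taken right after coronary flow had been stopped for 30 minutes (I30), 3 after a preconditioning in which flow was stopped and restored 4 times, for 5 minutes each (IP0), and 3 after 30 ischemic minutes followed by 60 of restored flow (I30R60). All mice were anesthetized, and their hearts were flushed with cold saline before harvest. Each array held the left ventricle of 1 mouse. Values are log2 intensities of probe sets, so that 1 unit is a 2-fold difference, and they compare arrays for 1 gene, not genes with each other.

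Myosin of heart muscle carries small light chains that differ between the chambers. Atrial muscle uses the regulatory chain Myl7 and the essential chain Myl4, whereas ventricular muscle uses Myl2 and Myl3. Atrial muscle also stores atrial natriuretic peptide, the product of Nppa, which lowers blood volume and pressure after release, and it makes sarcolipin, the product of Sln, which slows the calcium pump of the sarcoplasmic reticulum. Bmp10 is a secreted growth factor of the BMP family that right atrial muscle releases and that signals to endothelium. Ventricular muscle turns Nppa on again under load.

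Over all probe sets, the lowest correlation between 2 arrays of a group was 0.981. Differences between probe sets dominate this value, so that it cannot show whether arrays were alike gene by gene. The ventricular light chain Myl2 ranged from 12.41 to 12.72 over all 24 arrays, and cardiac troponin I (Tnni3), which all heart muscle makes, from 13.05 to 13.28. High Myl2 shows ventricular muscle and cannot show whether atrial tissue was present as well. Per2 ranged from 4.66 to 6.71 in wildtype and from 4.94 to 6.25 in Per2-/- hearts, overlapping in sham, IP0 and I30R60 hearts and apart in I30 hearts, where wildtype was higher. Where its probe set lies against the deleted part is not given in the sources used here, so that it does not check the genotype.

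The promoters of 4 of the 5 members, and of Mybphl, the non-member that was most like Myl7, are shown because these genes either stood high in the same arrays or, for Bmp10, did not. RefSeq's table for GRCm38.p6 gave them, and the 250 bases before the listed start are printed 5′ to 3′ on the strand of the gene. They lie at chr11:5898783-5899032 on the minus strand for Myl7, chr11:104550413-104550662 on the plus strand for Myl4, chr4:148000472-148000721 on the plus strand for Nppa, chr3:108364661-108364910 on the plus strand for Mybphl and chr6:87428744-87428993 on the plus strand for Bmp10. Capitals mark matches on either strand to GATAA (the core that GATA factors bind), AGGTGT (a core that T-box factors bind), the CArG box of serum response factor and the MEF2 site.
Myl7: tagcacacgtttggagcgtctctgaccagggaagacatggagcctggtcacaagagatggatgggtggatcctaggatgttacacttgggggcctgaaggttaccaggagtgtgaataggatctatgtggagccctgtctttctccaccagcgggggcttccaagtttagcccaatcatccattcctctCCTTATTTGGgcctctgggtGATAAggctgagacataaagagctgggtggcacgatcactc
Myl4: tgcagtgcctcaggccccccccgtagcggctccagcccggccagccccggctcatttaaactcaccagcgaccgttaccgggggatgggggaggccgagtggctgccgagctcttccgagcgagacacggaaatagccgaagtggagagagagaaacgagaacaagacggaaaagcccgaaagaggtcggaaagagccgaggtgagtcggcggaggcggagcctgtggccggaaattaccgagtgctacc
Nppa: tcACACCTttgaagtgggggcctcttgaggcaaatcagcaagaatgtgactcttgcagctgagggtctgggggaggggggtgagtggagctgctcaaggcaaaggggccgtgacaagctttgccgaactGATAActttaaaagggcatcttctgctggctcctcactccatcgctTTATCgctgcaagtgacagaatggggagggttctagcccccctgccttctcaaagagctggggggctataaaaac
Mybphl: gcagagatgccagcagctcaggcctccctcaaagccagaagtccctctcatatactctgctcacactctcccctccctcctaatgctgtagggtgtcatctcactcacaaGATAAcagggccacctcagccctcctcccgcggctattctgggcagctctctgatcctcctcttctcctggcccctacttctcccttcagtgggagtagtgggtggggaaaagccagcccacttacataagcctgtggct
Bmp10: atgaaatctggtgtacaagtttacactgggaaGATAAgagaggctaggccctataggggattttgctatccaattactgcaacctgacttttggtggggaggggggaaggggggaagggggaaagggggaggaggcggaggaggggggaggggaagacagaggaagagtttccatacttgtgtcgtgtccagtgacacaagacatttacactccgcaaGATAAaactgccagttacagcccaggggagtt

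GATAA was present in the promoters of Myl7, Nppa, Mybphl and Bmp10, with 2 matches each in Nppa and Bmp10 counting both strands, while 22.6% of 32851 promoters of this length held it. Nppa alone of the 5 held AGGTGT, which 11.8% of all promoters held. A CArG box stood 51 bases before the start of Myl7, and 1.47% of all promoters held one. None of the 5 held a MEF2 site, which 0.508% of all promoters held. In the Myl4 window none of the 4 motifs was found, and 63.6% of its bases were G or C against a median of 52.4% over all promoters. Bmp10, whose values were low and even between arrays, shared GATAA with the uneven Myl7, Nppa and Mybphl. These are matches of letters, and no binding was measured.

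Myl7, the regulatory light chain of atrial myosin, was high in 4 arrays. In wildtype sham hearts it measured 8.24, 5.22 and 3.73 in replicates 1, 2 and 3, and in Per2-/- sham hearts 3.09, 3.29 and 11.21. In Per2-/- IP0 hearts it measured 3.02, 2.79 and 9.12. Replicate 3 of both Per2-/- groups and replicates 1 and 2 of wildtype sham thus stood above the others of their groups.

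The other 5 groups held no array of high Myl7. It measured 3.64, 2.99 and 3.28 in wildtype I30 hearts, 3.17, 3.14 and 3.20 in wildtype IP0 hearts, and 2.97, 3.52 and 3.15 in wildtype I30R60 hearts. In Per2-/- hearts it measured 2.85, 3.35 and 3.27 after I30 and 3.07, 3.15 and 3.10 after I30R60. An array was counted as high at over 1 unit above the median of the 24 arrays, which was 3.19, and the third wildtype sham array with 3.73 was the next below that limit, while replicate 2 with 5.22 was the lowest above it. Myl7 had the largest spread within groups of all 18820 genes, with a residual SD of 2.23 against a median of 0.172.

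**Figure D1:**
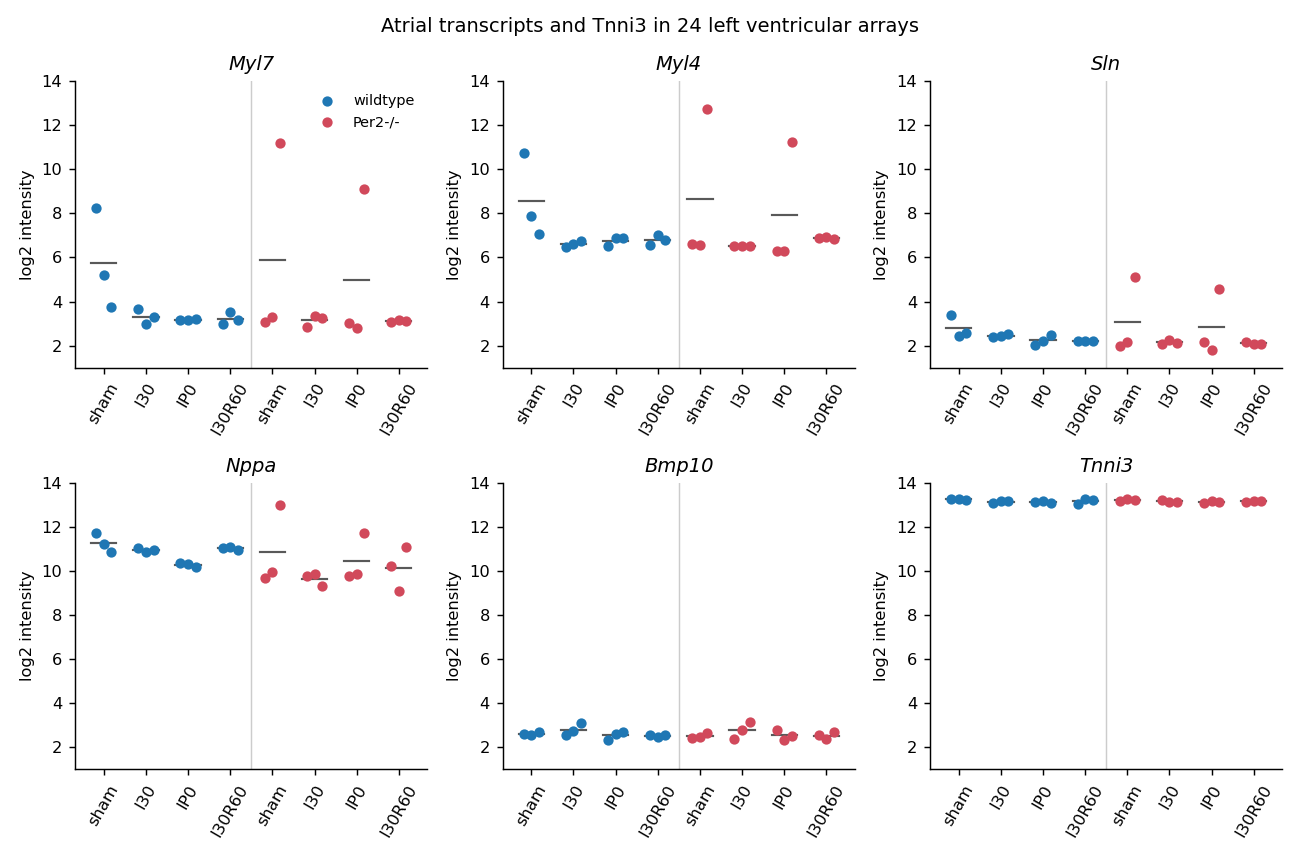
Log2 intensity of the 5 members and of Tnni3 in each of the 24 arrays (points in the order of replicates 1 to 3, grey lines the mean of 3). Myl7, Myl4, Sln and Nppa stand high in the same Per2-/- sham and IP0 arrays and in wildtype sham replicate 1, while Bmp10 stays between 2.31 and 3.16 and Tnni3 between 13.05 and 13.28.

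Myl4, the essential light chain that pairs with Myl7 in atrial myosin, was high in the same 4 arrays. It measured 10.73, 7.88 and 7.06 in wildtype sham hearts, 6.62, 6.56 and 12.72 in Per2-/- sham hearts, and 6.27, 6.31 and 11.24 in Per2-/- IP0 hearts. The order of the 4 high arrays was that of Myl7. The other 20 arrays lay between 6.27 and 7.06.

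Sarcolipin (Sln) was high in 3 of these arrays. It measured 3.40, 2.46 and 2.57 in wildtype sham hearts, 1.99, 2.16 and 5.10 in Per2-/- sham hearts, and 2.15, 1.80 and 4.57 in Per2-/- IP0 hearts. Wildtype sham replicate 2, where Myl7 and Myl4 were raised, lay inside the range of the 20 other arrays for Sln, which was 1.80 to 2.57. Of those 20, wildtype sham replicate 3 was the highest for Myl7, Myl4 and Sln alike.

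Nppa, which encodes atrial natriuretic peptide, was the member with a wide range in the other arrays too. It measured 11.71, 11.22 and 10.84 in wildtype sham hearts, 9.70, 9.96 and 12.97 in Per2-/- sham hearts, and 9.78, 9.85 and 11.70 in Per2-/- IP0 hearts. The 4 high arrays were again the highest 4 of the 24. Wildtype I30 hearts measured 11.06, 10.88 and 10.93, wildtype IP0 hearts 10.36, 10.31 and 10.20, and wildtype I30R60 hearts 11.02, 11.11 and 10.94.

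In the remaining Per2-/- groups Nppa measured 9.76, 9.85 and 9.34 after I30 and 10.20, 9.08 and 11.10 after I30R60. Without the 4 high arrays, the 10 wildtype arrays lay between 10.20 and 11.11 with a median of 10.90, and the 10 Per2-/- arrays between 9.08 and 11.10 with a median of 9.82. Of these 10 Per2-/- arrays, I30R60 replicates 1 and 3 had the highest values, and replicate 3 lay among the highest wildtype arrays although its Myl7 was 3.10. The ranges of the genotypes overlapped through I30R60 replicates 1 and 3 of Per2-/- hearts. In sham, I30 and IP0 hearts the remaining wildtype arrays all lay above the Per2-/- ones, wildtype sham being 1 array.

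Bmp10 did not share the pattern. It measured 2.61, 2.54 and 2.70 in wildtype sham, 2.45, 2.45 and 2.66 in Per2-/- sham and 2.79, 2.35 and 2.52 in Per2-/- IP0 hearts. The whole range over 24 arrays was 2.31 to 3.16, and its highest values were in replicate 3 of I30 hearts of both genotypes, 3.11 in wildtype and 3.16 in Per2-/-. Its residual SD of 0.214 was larger than that of 70.9% of genes, whereas the other members ranked 1 (Myl7), 2 (Myl4), 7 (Nppa) and 8 (Sln) among all genes by that SD. The values of Bmp10 thus showed no such unevenness. They lay near the floor, against a median of 4.44 over all values, where RMA values understate folds. A difference in Bmp10 RNA between arrays could therefore go unseen.

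The array with the highest Myl7 of each group was set against the mean of the other 2 arrays of its group, which in wildtype sham hearts include the raised replicate 2. In Per2-/- sham replicate 3 the excess was 8.02 units for Myl7, 6.13 for Myl4, 3.14 for Nppa, 3.02 for Sln and 0.22 for Bmp10. In Per2-/- IP0 replicate 3 it was 6.22 for Myl7, 4.95 for Myl4, 2.59 for Sln, 1.89 for Nppa and -0.05 for Bmp10. In wildtype sham replicate 1 it was 3.76 for Myl7, 3.26 for Myl4, 0.89 for Sln, 0.68 for Nppa and -0.02 for Bmp10. Myl7 had the largest and Bmp10 the smallest excess among the members in all 3 arrays.

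The excess reached 1 unit for 4 of the 5 members in the Per2-/- sham array, where 0.313% of all genes reached it, for 4 in the Per2-/- IP0 array (0.191%) and for 2 in the wildtype sham array (0.0638%). Members above both other arrays of the group numbered 5, 4 and 4, and 35.5%, 33.6% and 31.6% of all genes were. These counts describe the choice of the members and support nothing.

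On the linear scale, with the median of the 20 other arrays taken off, Per2-/- IP0 replicate 3 had 23.3% of the Myl7 intensity of Per2-/- sham replicate 3, 35.1% of that of Myl4 and 64.7% of that of Sln. Wildtype sham replicate 1 had 12.4% for Myl7, 24.2% for Myl4 and 20.2% for Sln, and wildtype sham replicate 2 had 1.21% for Myl7 and 2.07% for Myl4. The share of Sln was thus above those of the light chains in the Per2-/- IP0 array and between them in wildtype sham replicate 1. Sln lay at 1.80 to 2.57 in the 20 other arrays, near the floor, where RMA values understate folds. Its share is therefore not on a par with those of the brighter light chains. No such share is given for Nppa, whose level in the other arrays differed between the genotypes. In RNA of whole tissue, more cells that make a transcript and more transcript per cell cannot be told apart.

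To find which genes followed Myl7 within groups, the mean of its group was taken from each value and Pearson's r with Myl7 was computed over the 24 arrays. The value rests on 4 high arrays against 20 others, so that it is a description with no p, and 2 low arrays of a group move down together when the third is high. It was 0.99 for Myl4, 0.97 for Sln, 0.88 for Nppa and 0.12 for Bmp10. Without the 2 arrays farthest from the median it was 0.96 for Myl4, 0.77 for Sln, 0.37 for Nppa and -0.01 for Bmp10. Within the 15 arrays of the 5 groups with no high array it was 0.24 for Myl4, 0.10 for Sln, 0.01 for Nppa and 0.11 for Bmp10.

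A gene was said to follow Myl7 at an r of at least 0.9 with an excess of at least 1 unit in all 3 arrays. Of the 18820 genes, Myl4 and 1 gene that is no member, Mybphl, did so. Mybphl encodes a myosin-binding protein of atrial muscle and the conduction system. It measured 5.62, 2.94 and 3.74 in wildtype sham hearts, 2.80, 2.67 and 8.84 in Per2-/- sham hearts, and 2.53, 2.99 and 6.32 in Per2-/- IP0 hearts. Its values stood high in 3 of the 4 arrays, whereas wildtype sham replicate 2 lay inside the range of the 20 others, 2.53 to 3.74. A second probe set paired with Mybphl, with a mean of 2.21, had an r of -0.06 and no such excess. Just outside the limit, Sln and Fgf12 had an excess of 0.89 and 0.88 in wildtype sham replicate 1.

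With Myl7 left out, 6 genes had an r of at least 0.9, of which 2 are members, Myl4 and Sln. The other 4 were Mybphl with 0.96, Mir690 with 0.95, Dkk3 with 0.92 and Fgf12 with 0.91. Within the 15 arrays of the groups with no high array, r was 0.30 for Mybphl, 0.79 for Mir690, 0.28 for Dkk3 and 0.11 for Fgf12. Mir690 lay near the floor, with a median of 2.05 in the 20 other arrays. Dkk3 encodes a secreted protein of the Dickkopf family that atrial muscle makes, and Fgf12 an intracellular factor that binds sodium channels. Dkk3 measured 4.00, 3.72 and 7.03 in Per2-/- sham hearts, 3.64, 3.86 and 5.28 in Per2-/- IP0 hearts, and 4.64, 3.72 and 4.10 in wildtype sham hearts. Fgf12 measured 3.29, 3.08 and 6.73, then 2.89, 2.86 and 4.02, and 3.82, 2.95 and 2.92 in the same groups. Both were highest in Per2-/- sham replicate 3, next highest in Per2-/- IP0 replicate 3, and above the other wildtype sham arrays in replicate 1.

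Mir690 is a microRNA gene, and the mature sequence is shown because the gene lies inside another that was high in the same arrays. RefSeq gives miR-690 at chr16:28599940-28599961 on the minus strand of GRCm38.p6, and capitals mark the seed, bases 2 to 8.
miR-690: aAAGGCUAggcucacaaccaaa

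The hairpin lies inside the span of Fgf12, at chr16:28157783-28753243, and no other of 1738 mature mouse microRNAs in the table has this seed. Mir690 measured 2.34, 2.06 and 5.13 in Per2-/- sham hearts, 1.91, 1.82 and 3.56 in Per2-/- IP0 hearts, and 2.64, 2.22 and 1.99 in wildtype sham hearts. Its r with Fgf12 was 0.90. Mir690 and Fgf12 were thus both high in the same 2 Per2-/- arrays, and whether the probe set of Mir690 reads RNA of Fgf12 was not tested.

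Of the 15 non-members most like Myl7, chosen by r among genes at least 1 unit above in Per2-/- sham replicate 3, Tmem163 (a zinc transporter) had 0.87, Stard10 (a lipid transfer protein) 0.87, Ptgfr (the prostaglandin F receptor) 0.81, Rxfp1 (the relaxin receptor) 0.81, Sbk2 (an atrial kinase) 0.77, Upk3b (a uroplakin of mesothelium) 0.77 and Cacna1h (a T-type calcium channel) 0.71. Pkhd1l1, Mlana, Podn and Cilp2 lay between 0.77 and 0.83. Tmem163 was 3.79 units in excess in Per2-/- sham replicate 3, 0.97 in wildtype sham replicate 1 and 0.66 in Per2-/- IP0 replicate 3. For Rxfp1 these were 2.80, 0.12 and 0.39, so that it was near the excess of Sln in the first array and far below it in the other two.

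**Figure D2:**
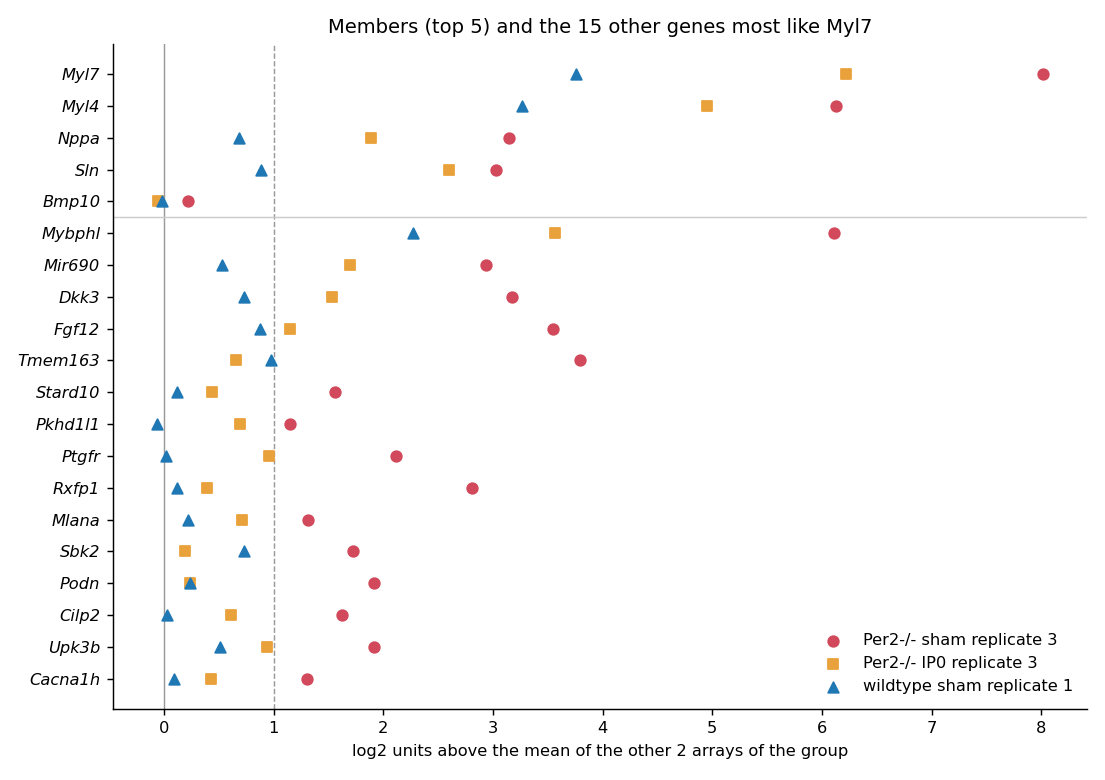
Excess in log2 units of the array with the highest Myl7 over the mean of the other 2 arrays of its group, for the 5 members and the 15 non-members most like Myl7 (circles Per2-/- sham replicate 3, squares Per2-/- IP0 replicate 3, triangles wildtype sham replicate 1); the dashed line marks 1 unit. Myl7, Myl4 and Mybphl lie right of it in all 3 arrays, and Bmp10 stays near 0.

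Genes that were lower where Myl7 was high were fewer, with 1 gene at an r of -0.8 or lower against 13 at 0.8 or higher. The 5 with the lowest r among genes at least 0.5 units below in Per2-/- sham replicate 3 were Cage1 with -0.89, Gadd45b with -0.78, Amy1 with -0.75, Kcna5 with -0.73 and Ch25h with -0.71. Gadd45b, a gene of the stress response, measured 6.15 in Per2-/- sham replicate 3 against 7.72 to 9.45 in the 20 other arrays, and Ch25h, which makes 25-hydroxycholesterol, 4.20 against 4.73 to 7.59. Both values lay below all 20. Kcna5, a potassium channel best known from the human atrium, measured 6.28 there against 6.65 to 7.21. These genes were chosen for their fall in that array. In Per2-/- IP0 replicate 3 Gadd45b, Ch25h and Kcna5 measured 8.70, 5.64 and 6.81, inside the ranges of the 20 others, which span all treatments. Within its own group this array was the lowest for each of them. The other 2 Per2-/- IP0 arrays measured 9.12 and 8.80 for Gadd45b, 6.21 and 6.24 for Ch25h, and 6.83 and 7.14 for Kcna5. In wildtype sham replicate 1 they measured 7.71, 4.64 and 6.49, below those ranges.

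Genes were also chosen in the 6 sham arrays alone and described in the IP0 hearts. There were 22 genes with an r of at least 0.9 with Myl7 over the sham arrays and an excess of at least 1 in Per2-/- sham replicate 3, of which Myl4, Nppa and Sln are members and were picked with the IP0 values known. Of the 19 others, 13 were highest in replicate 3 of the Per2-/- IP0 hearts, where 33.6% of all genes were, and 5 were at least 1 unit above the other 2 arrays, where 0.191% of all genes were. Their median excess was 0.23 against -0.01 over all genes. That replicate was itself picked for its high Myl7, so that these counts are a description. Gja5, the atrial and conduction connexin, was not highest there, with 1.28 units in Per2-/- sham replicate 3 and -0.01 in Per2-/- IP0 replicate 3.

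Other atrial genes moved with the members in part, mostly in Per2-/- sham replicate 3. Of 18 genes on a list of atrial markers, members left out, 15 were measured, and 12 of the 15 were highest of their group in Per2-/- sham replicate 3, 7 of them by at least 1 unit. In Per2-/- IP0 replicate 3 these counts were 6 and 3, and in wildtype sham replicate 1 they were 9 and 1. Of all genes, 35.5%, 33.6% and 31.6% were highest in these 3 arrays, in that order. An excess of at least 1 unit was reached by 0.313%, 0.191% and 0.0638% of all genes. The 6 of 15 highest in the Per2-/- IP0 array thus lay near the share of all genes. The median excess of the list was 0.91, 0.00 and 0.06 units. The intensities of the list, summed on the linear scale, came to 12.75 (log2) in Per2-/- sham replicate 3 and 12.03 in Per2-/- IP0 replicate 3, against 11.70 to 11.88 in the 20 other arrays. The list was written with earlier results of these arrays known.

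The atrial genes with an excess of at least 1 unit in Per2-/- sham replicate 3 were Mybphl, Fgf12, Dkk3, Sbk2, Stard10, Gja5 and Angpt1. Tbx5, a transcription factor of the atria and left ventricle, and Kcnj3 and Kcnj5, the channels that acetylcholine opens in atrial muscle, each had 0.91 there, and -0.13, -0.26 and -0.20, in that order, in Per2-/- IP0 replicate 3. Pam, the enzyme that amidates peptides and lines atrial granules, had 0.67, 0.31 and, in wildtype sham replicate 1, 0.06. Nr2f2, which sets atrial identity, had 0.34 and -0.59 in the Per2-/- arrays, and Kcnk3, a two-pore potassium channel, -0.05 and 0.00. Mybphl, Dkk3 and Fgf12 alone of the list reached 1 unit in both Per2-/- arrays.

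Genes of ventricular muscle showed no such rise. None of 12 ventricular genes reached 1 unit in any of the 3 arrays, a count that registers rises alone. Their median excess was 0.07 in the high Per2-/- sham array, -0.17 in the high Per2-/- IP0 array and 0.02 in wildtype sham replicate 1. In the Per2-/- IP0 array the median over all genes was -0.01. There 2 of the 12 were highest, where 33.6% of all genes were. The lowest excess of the 12 in any of the 3 arrays was -0.48, for Myh7. Myl2 and Myl3, the ventricular counterparts of Myl7 and Myl4, had 0.07 and 0.01 in Per2-/- sham replicate 3. Myh7, the slow myosin heavy chain, had -0.48, 0.44 and -0.47. Of 11 genes that all heart muscle makes, none reached 1 unit and their medians were 0.05, -0.03 and 0.02.

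Markers of other cells of the heart and chest were read in the same arrays. Mesothelial genes mark the outer lining of the heart. Of 11 measured, 8 were highest in Per2-/- sham replicate 3 (35.5% of all genes) and 4 at least 1 unit above (0.313%). These were Upk3b with 1.92, Upk1b with 1.55, Lrrn4 with 1.42 and Msln with 1.39, the last 3 named after their values were seen. Of the others, Krt8 had 0.86, Krt19 0.42, Aldh1a2 0.24, Krt18 0.21, Bnc1 0.13, Tbx18 0.08 and Wt1 -0.42. The summed level of the mesothelial list was 8.56 in this array against 7.95 to 8.17 in the other 2 of the group. In the 20 other arrays it ranged from 7.77 to 8.58. It was 8.15 in wildtype sham replicate 1 and 8.02 in Per2-/- IP0 replicate 3, inside that range. In those arrays 7 and 5 of the 11 were highest, with medians of 0.25 and 0.08, where 31.6% and 33.6% of all genes were highest.

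All 8 fibroblast genes were highest in Per2-/- sham replicate 3, with a median excess of 0.48, and their summed level of 12.41 lay above the 11.98 to 12.30 of the 20 arrays. In wildtype sham replicate 1 they were highest for 7 of 8 with a median of 0.15 and a summed level of 12.23, and in Per2-/- IP0 replicate 3 for 5 of 8 with a median of 0.12 and a summed level of 12.04. Lum and Pdgfra, a matrix protein and a receptor of fibroblasts, had 0.56 and 0.35 in Per2-/- sham replicate 3. Of 6 endocardial genes 4 were highest there and 4 in Per2-/- IP0 replicate 3, with median excesses of 0.21 and 0.29. Pacemaker genes had medians of 0.17, 0.08 and -0.05 in the order of the arrays above, with 0.47 for the pacemaker channel Hcn4 in Per2-/- sham replicate 3. The part of these cells in the members' values was not tested.

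Smooth muscle, nerve ganglion, fat, thymus and lung genes had no gene at 1 unit in any of the 3 arrays. Their medians lay between -0.21 and 0.28, the largest being that of 8 thymus genes in Per2-/- IP0 replicate 3. Of 8 red cell genes 2 were measured, with a median of 0.46 in Per2-/- sham replicate 3. The summed level of each of these lists lay within the range of the 20 other arrays, apart from nerve ganglion in Per2-/- IP0 replicate 3, which was 8.01 against 7.46 to 7.95.

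**Figure D3:**
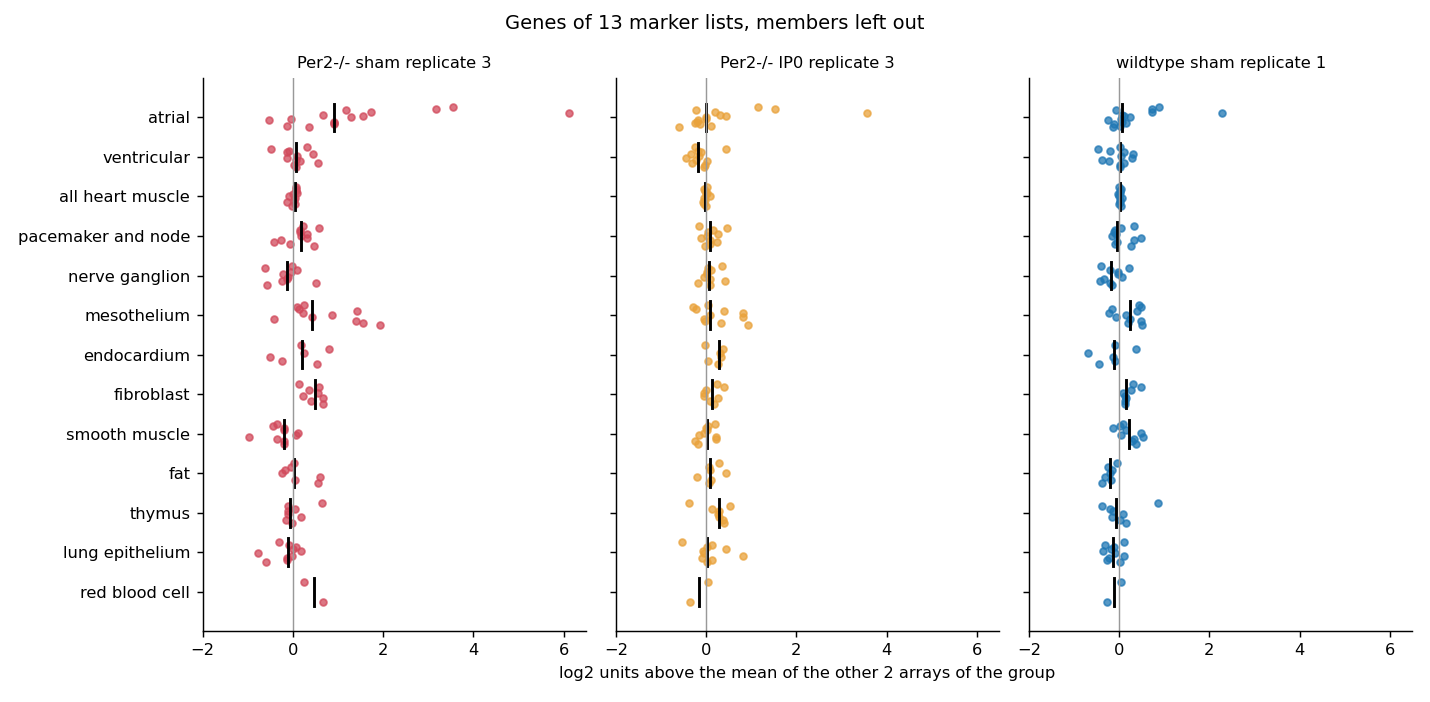
Excess in log2 units over the mean of the other 2 arrays of the group for each gene (points) of 13 marker lists in the 3 arrays, with the median of each list as a black bar. In Per2-/- sham replicate 3 the atrial list reaches 6.11 and mesothelial genes 1.92, while ventricular genes stay below 1 in all 3 arrays.

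Since the sham groups are the controls of all treatments, the high arrays entered the comparisons of the members. Myl7 was lower than in sham hearts by 2.43 (SE 1.64) in wildtype I30 hearts in the linear model of all 24 arrays, with means of 3.30 ± 0.33 and 5.73 ± 2.30 (SD, n = 3). In Per2-/- hearts the I30 difference was -2.70 (SE 1.64), with means of 3.16 ± 0.27 and 5.86 ± 4.63. Between the genotypes Myl7 differed by 0.13 in sham hearts and by 1.81 in IP0 hearts, Per2-/- minus wildtype. Without the 4 high arrays these 4 differences were -0.43 (SE 0.23), -0.03 (SE 0.19), -0.54 (SE 0.25) and -0.27 (SE 0.19), and wildtype sham then rested on 1 array.

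The differences of Nppa moved with these arrays too. Per2-/- I30 hearts were lower than Per2-/- sham hearts by 1.23 (SE 0.63), and without the high arrays by 0.18 (SE 0.35). Per2-/- I30R60 hearts differed from sham by -0.75 (SE 0.63) and without the high arrays by 0.30 (SE 0.35). Per2-/- sham hearts differed from wildtype sham by -0.38 (SE 0.63), and without the high arrays by -1.01 (SE 0.47). For IP0 hearts the difference between the genotypes was 0.15 (SE 0.63) and then -0.47 (SE 0.35). Bmp10 differed by at most 0.26 units in any of the 8 comparisons and by at most 0.33 without the high arrays. Of 40 differences of the 5 members, 13 changed sign without the 4 arrays.

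**Figure D4:**
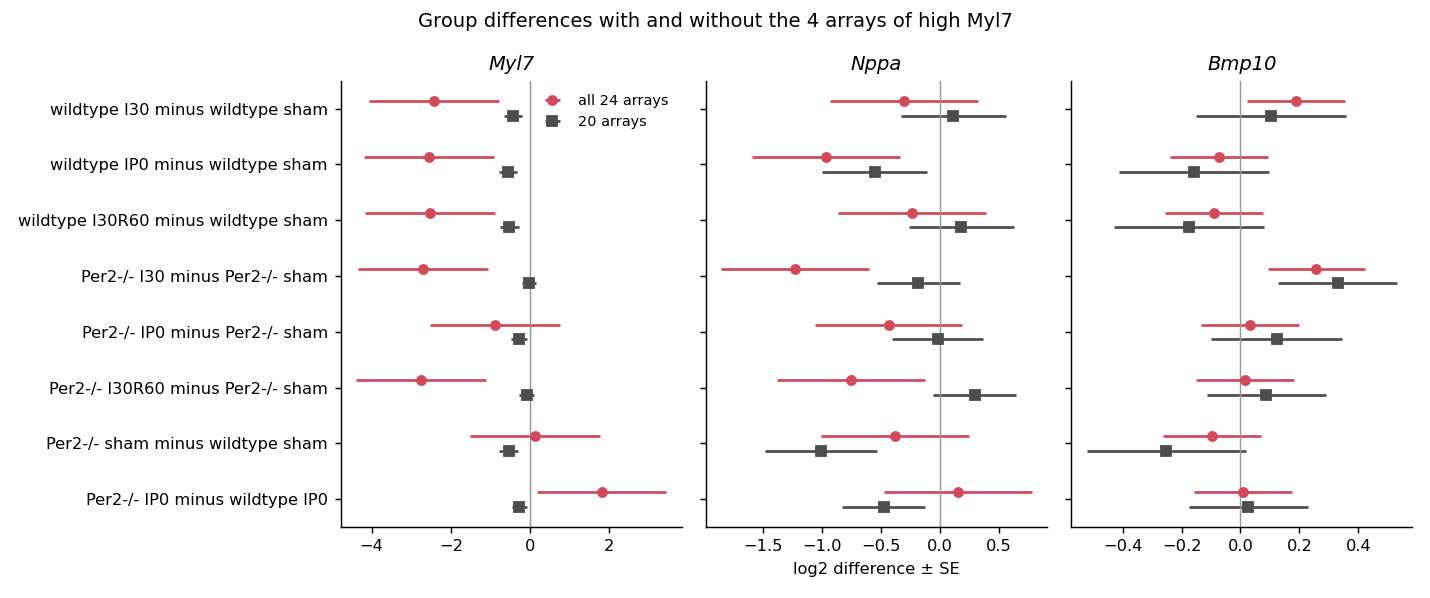
Log2 differences between groups for Myl7, Nppa and Bmp10 with standard errors of the linear model, over all 24 arrays (circles) and without the 4 arrays of high Myl7 (squares); each panel has its own scale. Differences of Myl7 against sham lie between -2.76 and -0.88 with all arrays and between -0.56 and -0.03 without the 4.

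The genes that work with the members, and other chamber genes, were tested between groups. Their lists were written with earlier results of these arrays known. The lists of chamber genes and of the partners of each member held 68 measured genes, and limma's moderated test was run on all 18820 genes of the 24 arrays with Benjamini-Hochberg adjustment. At an adjusted p under 0.05 it called 1 of the 68 in wildtype I30 hearts against sham, where 2.39% of all genes were called, 2 in IP0 hearts (0.85%) and 3 in I30R60 hearts (2.47%). In Per2-/- hearts it called 0 after I30 (0% of all genes), 0 after IP0 (0.159%) and 4 after I30R60 (4.79%). Per2-/- differed from wildtype in 2 of the 68 in sham hearts (0.266%) and in 0 in IP0 hearts (0.0797%). Unadjusted p values under 0.05 were found for 6, 6 and 5 genes in the 3 comparisons with no call. The treatments share their sham hearts, and sham replicates 1 and 2 of wildtype and 3 of Per2-/- are among the high arrays.

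Of the natriuretic partners, Nppb, which encodes the B-type peptide of ventricular muscle, rose after IP0 in wildtype hearts and after I30R60 in both genotypes. It measured 10.13, 9.52 and 9.48 in wildtype sham and 10.73, 10.98 and 11.12 in wildtype IP0 hearts, without overlap. The rise was 1.23 (SE 0.19, limma adjusted p = 0.00211), and 1.46 without the high arrays. In wildtype I30R60 hearts Nppb rose by 0.87 (SE 0.19, limma adjusted p = 0.0131) and in Per2-/- I30R60 hearts by 0.78 (SE 0.19, limma adjusted p = 0.0204). Without the high arrays both missed the threshold, as they did without 1 of 4 single arrays each, with adjusted p of 0.0699 and 0.0712. In Per2-/- IP0 hearts Nppb measured 10.59, 10.32 and 10.39 against 9.87, 9.63 and 9.65 in sham, without overlap, and the difference of 0.71 (SE 0.19) did not pass (limma adjusted p = 0.199). Nppa in the wildtype IP0 hearts lay below all 3 sham hearts, at 10.20 to 10.36 against 10.84 to 11.71. Of these sham hearts, replicates 1 and 2 are among the arrays of high Myl7. The Nppa difference was -0.97 (SE 0.63), and -0.55 without the high arrays, where wildtype sham rested on 1 array.

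Nppb had an excess of -0.10 in Per2-/- sham replicate 3 and -0.06 in Per2-/- IP0 replicate 3, where Nppa had 3.14 and 1.89. In wildtype sham replicate 1 the excess was 0.63 for Nppb and 0.68 for Nppa. Mme, the neprilysin that breaks the peptides down, measured 6.94, 6.80 and 6.81 in Per2-/- sham against 6.20, 6.16 and 5.98 in wildtype sham hearts. It was higher in Per2-/- by 0.73 (SE 0.11, limma adjusted p = 0.00172) and by 0.88 without the high arrays. In wildtype hearts Mme rose by 0.48 after IP0 (SE 0.11, limma adjusted p = 0.0367), with an adjusted p of 0.0881 without the high arrays. This call was also lost without any 1 wildtype sham array or without IP0 replicate 1 or 3. Of the 8 natriuretic genes the others, Nppc, Npr1, Npr2, Npr3, Corin and Furin, passed in none of the 8 comparisons.

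Of 16 genes of Bmp10 signalling, Id2 and Smad1 rose after I30R60 in both genotypes, and the other 14, with the ligand Gdf2, the receptors Acvrl1 and Bmpr2 and the co-receptor Eng among them, passed in none. Id2, an inhibitor of helix-loop-helix factors and a target of Smads, measured 8.77, 8.20 and 8.29 in wildtype I30R60 hearts against 7.48, 7.40 and 7.17 in sham, and 8.22, 8.37 and 9.15 in Per2-/- against 7.35, 7.08 and 7.51. The rises were 1.07 (SE 0.19, limma adjusted p = 0.00264) and 1.27 (SE 0.19, limma adjusted p = 0.00034). Smad1, which carries the BMP signal to the nucleus, rose by 0.74 in wildtype (SE 0.14, limma adjusted p = 0.00373) and by 0.74 in Per2-/- hearts (SE 0.14, limma adjusted p = 0.00288). Without the high arrays the rises in wildtype had adjusted p of 0.0608 for Id2 and 0.115 for Smad1, with wildtype sham down to 1 array, while those in Per2-/- hearts passed.

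Among the ventricular and atrial genes, the inward rectifier channel Kcnj2 fell by 0.79 in wildtype I30 hearts (SE 0.14, limma adjusted p = 0.0105). It measured 7.15, 7.19 and 7.14 there against 7.81, 8.10 and 7.93 in sham hearts, and the fall was 0.78 without the high arrays with an adjusted p of 0.288. Kcna5 rose by 0.56 in Per2-/- I30R60 hearts (SE 0.13, limma adjusted p = 0.0162), at 7.20, 7.19 and 7.21 against 6.80, 6.84 and 6.28. Its low sham value is that of the array with the highest Myl7, and without the high arrays the difference was 0.38 with an adjusted p of 0.113. The call was lost without that array alone and without I30R60 replicate 1 alone. Of the 15 atrial genes no other passed in any comparison, and of the 12 ventricular genes no other than Kcnj2 did. The median difference of the atrial list was -0.53 in Per2-/- I30R60 against sham hearts, with -0.04 over all genes, and 0.32 in Per2-/- against wildtype sham hearts, with 0.01 over all genes. Both comparisons hold Per2-/- sham replicate 3.

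Of 12 myosin light chains and their kinases, Myl1, the essential chain of fast skeletal muscle, was higher in Per2-/- than in wildtype sham hearts by 1.02 (SE 0.21, limma adjusted p = 0.0370). It measured 8.14, 8.30 and 9.01 against 7.66, 7.21 and 7.52. Its highest value was in Per2-/- sham replicate 3, and without the high arrays the difference was 0.70 with an adjusted p of 0.699. The call was lost without 1 of 7 single arrays, all 3 wildtype sham arrays among them. Of the 8 partners of Sln none passed. Among them the calcium pumps Atp2a2 of heart muscle and Atp2a1 of fast muscle had excesses of 0.07 and 0.77 in Per2-/- sham replicate 3, and calsequestrin 1 (Casq1) had 1.09.

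**Figure D5:**
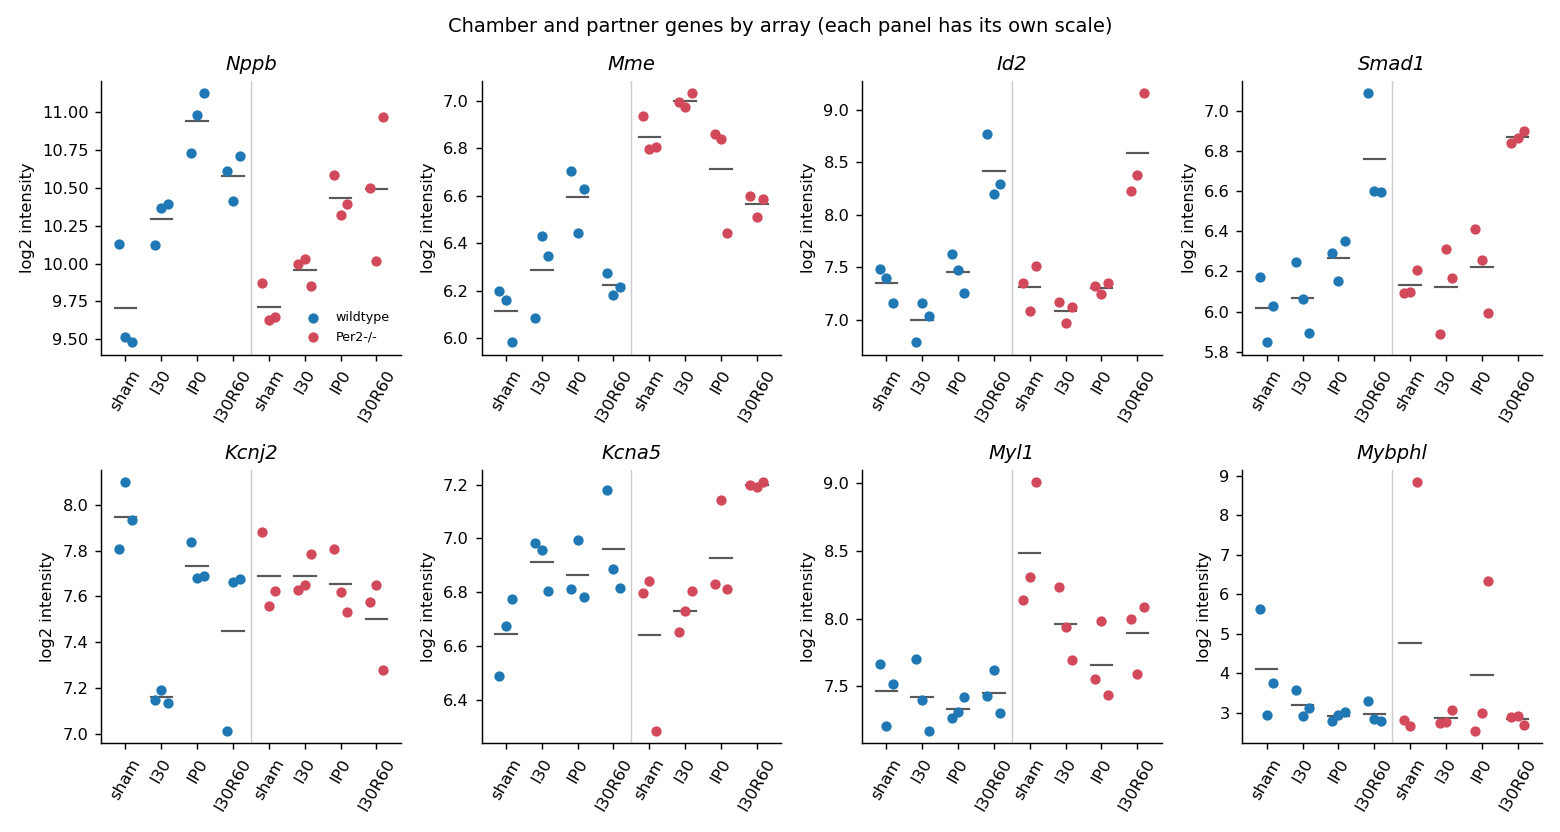
Log2 intensity by array for the 7 chamber and partner genes that passed the test in at least 1 comparison and for Mybphl (points replicates 1 to 3, grey lines the mean of 3; each panel has its own scale). Nppb, Id2 and Smad1 stand above sham after I30R60 in both genotypes, and Mybphl shows the arrays of high Myl7.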

How the data were processed

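The hearts were measured on Affymetrix Mouse Gene ST arrays, 1 mouse per array, with 24 arrays in 8 groups of 3. The authors normalized the arrays with RMA in Partek and deposited log2 values for 35555 probe sets, with array medians of 4.39 to 4.52. Probe sets were named from the platform's annotation: 21218 had 1 symbol, 1881 several and 12456 none. Each of 18820 genes was read from its probe set with the highest mean, which chose among several in 1386 genes. Groups came from the labels, and arrays have no depth, so that their number limits the precision. RMA values near the floor understate folds.

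The members, the gene lists and the tests were chosen with earlier results of these data known, and the members got no test. Following Myl7 was measured on deviations from the group means over 24 arrays. Named genes were the 5 members, the 15 genes with the highest r and the 5 with the lowest among those that moved in the highest array by at least 1 and 0.5 units, genes of the chamber and partner lists, up to 4 of each other list by mean, and Per2. Mesothelial and pacemaker genes beyond these were named with their values known. Tests were limma 3.58.1 in R 4.3.3, two-sided, with 1 mean per group, 16 residual degrees of freedom and Benjamini-Hochberg adjustment over all genes. The steps were tested on simulated data. Other steps used Python 3.11.15, numpy 2.4.6, pandas 2.3.3 and matplotlib 3.10.9. Alternatives were other scalings, gene filters, fits and thresholds, a replicate block, and leaving out arrays. Replicate numbers were not taken as pairs.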

Additional observations from a re-analysis of the deposited data

Results flagged for a closer look

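Kcnk3, a potassium channel of the atrial list, lay on opposite sides of sham after I30 in the 2 genotypes, with neither difference past the threshold. It differed from sham by -0.15 in wildtype and by 0.12 in Per2-/- hearts (SE 0.07 each), every wildtype I30 array lying on one side of the sham mean and every Per2-/- array on the other. The difference between the genotypes was 0.27 (SE 0.09), and limma's interaction term did not pass the threshold, with an adjusted p of 0.553.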

How the results depend on the processing

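The counts of chamber and partner genes called held within 1.5 times when arrays were centred on their medians or quantile normalized, when the probe sets of a gene were averaged, when the dimmest genes were left out and under eBayes with trend and robust settings. The 12 calls passed under all 4 scalings and filters, and no called difference changed direction under any alternative. Fitted on only the groups compared, the counts were 0 of 1 in wildtype I30, 0 of 2 in wildtype IP0, 1 of 3 in wildtype I30R60, 1 of 4 in Per2-/- I30R60 and 0 of 2 in Per2-/- against wildtype sham hearts. The methods' t-test with Benjamini-Hochberg adjustment called 0 in each of these, with 9, 13, 5, 10 and 10 at its threshold before adjustment, and 0 in the other 3, with 5, 13 and 6. Array weights gave 3 in wildtype I30 hearts. At an adjusted p under 0.1 the counts were 4 in wildtype I30 and 7 in Per2-/- I30R60 hearts. Without the 4 arrays of high Myl7, which leaves 1 wildtype sham array, they were 0 in wildtype I30, 1 in wildtype IP0, 0 in wildtype I30R60, 2 in Per2-/- I30R60 and 1 between the genotypes in sham hearts. The cause was not tested. With 1 array left out the counts ran from 1 to 2 in wildtype I30, 1 to 2 in wildtype IP0, 2 to 4 in wildtype I30R60, 2 to 8 in Per2-/- I30R60 (2 without Per2-/- sham replicate 3, 8 without Per2-/- sham replicate 1) and 1 to 2 between the genotypes in sham hearts, and stayed at 0 in the other 3 comparisons.

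With a replicate block the count between the genotypes in sham hearts was 1, since Myl1 was lost, and the block changed no other call. The replicate numbers were not taken as pairs. The mean correlation of deviations was 0.02 for a shared number and -0.01 for differing numbers. In 1 of 28 pairs of groups every correlation for a shared number was over 0.1. However, 19 of 24 arrays correlated best with one of their own number. That is more than an even spread over the 3 numbers would give, and what such arrays share was not tested. Genes that follow Myl7 numbered 0 by Spearman's rho and 6 at an excess of 0.5 (Myl4, Mybphl, Sln, Dkk3, Fgf12 and Mir690), and 0 to 2 with 1 array left out, 0 without wildtype sham replicate 1. Of the 40 differences of the members none moved by over 1 SD under median centring, quantile normalization or averaged probe sets, 9 did without the 4 arrays, and 18 of 240 did with 1 array left out. The 3 arrays per group limit every value here.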

Other observations

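Of 12456 probe sets with no listed gene, 1 had an r of at least 0.9 with Myl7 (0.92), and of 1881 probe sets paired with several genes none had, the highest being 0.71.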
